A study of Mus musculus with 32 samples.

Results

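The clustered protocadherins are cell-surface proteins of the cadherin superfamily, encoded by 3 neighbouring gene clusters named alpha, beta and gamma. Members were the protein-coding genes whose symbol begins with *Pcdha*, *Pcdhb* or *Pcdhg*, which gave 57 of the 53715 genes in the deposited tables. They comprised 14 alpha, 22 beta and 21 gamma genes, all on the plus strand of mouse chromosome 18 of GRCm38/mm10. The alpha cluster lay at chr18:36930184-37187661, the beta cluster at chr18:37264938-37524479 and the gamma cluster at chr18:37661793-37841873. The rule used names alone and no measured value. The symbol *Pcdha11* stood on 2 of the gene identifiers, ENSMUSG00000007440.10 and ENSMUSG00000102206.5, which were kept apart and are called *Pcdha11* (1) and *Pcdha11* (2). RefSeq names the gene at the start of *Pcdha11* (1) *Pcdha10*. *Pcdhgb8* was left out because it is annotated as a pseudogene.

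In the alpha and gamma clusters, each gene consists of its own large variable first exon, which carries a promoter and encodes the extracellular cadherin repeats, spliced to small constant exons that all genes of the cluster share. Beta genes have no constant exons. A neuron uses only some of the alternate isoforms, chosen promoter by promoter with the help of the insulator protein CTCF and the cohesin complex, and matching sets of isoforms on touching membranes bind each other, which lets a neuron tell its own branches from those of its neighbours. The C-type isoforms at the downstream end of the alpha and gamma clusters (*Pcdhac1*, *Pcdhac2*, *Pcdhgc3*, *Pcdhgc4* and *Pcdhgc5*) are used more broadly and not by random choice. Both enzymes varied in the study act on methylation of lysine 4 of histone H3, a mark of active promoters and enhancers, which KMT2A writes and KDM5C removes.

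Polyadenylated RNA was sequenced from microdissected amygdala and hippocampus of the same 16 adult male mice. They came from a cross of 129S1/SvImJ males heterozygous for *Kmt2a* with C57BL/6J females heterozygous for *Kdm5c* (F1 hybrids), so that every group carried the same hybrid background. The 4 genotypes were wild type (WT), *Kmt2a*-HET (*Kmt2a*+/-), *Kdm5c*-KO (*Kdm5c*-/y, since *Kdm5c* is X-linked) and the double mutant (DM: *Kmt2a*+/-, *Kdm5c*-/y), with 4 mice each. Both deletions were constitutive and therefore present in all cells throughout development, and the samples were whole tissue. In such tissue, fewer cells using an isoform and less RNA per cell cannot be told apart.

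The 32 libraries held between 19215500 and 27799000 counts assigned to genes, and 21445 to 23252 genes had a count in a library. A count of 3 corresponded to 0.108 to 0.156 CPM (counts scaled to a common library total), which covers counting error only. The share of spike-in (ERCC) RNA stood at 0.120 to 0.511% in amygdala libraries and at 0.0503 to 0.295% in hippocampal ones. Size factors taken from it carry this spread into every gene, so a call lost with them does not single out a member. Whole-gene counts do not isolate the deleted exons and so are a weak check of the labels. The study itself checked the genotypes by reads over the targeted exons, by genomic DNA and, for KDM5C, by protein blot. *Kdm5c* lay between 1145 and 1355 normalised counts in the *Kdm5c*-KO hippocampus, below all WT values there (1426 to 1888), while DM values (1331 to 1430) reached the lowest WT value. In the amygdala *Kdm5c*-KO values (1248 to 1434) fell inside the WT range (1227 to 2026), and DM values (1225 to 1356) overlapped it. For *Kmt2a*, the *Kmt2a*-HET values lay inside or across the WT range in both regions (3547 to 4613 against 2163 to 5639 in the amygdala, 3289 to 6647 against 3191 to 5919 in the hippocampus). Of the region markers, 4 of 4 hippocampal genes were higher in the hippocampus and 4 of 4 striatal genes were lower there, whereas of 5 amygdala genes 1 was higher and 2 were lower in the hippocampus. The study also compared its libraries with published ones and reported that each region lay closest to its published counterpart. The libraries numbered 1 stood apart: in all 8 groups of genotype and region they had the largest gamma share and the smallest alpha and beta shares of the members' counts, and in 7 of 8 groups they had the fewest detected genes. In CPM the beta sum was lowest in them in 8 groups and the alpha sum in 7, while the gamma sum was highest in 1, lowest in 2 and between the others in 5. Replicate 1 of the *Kdm5c*-KO hippocampus also held 4338 CPM of the choroid plexus markers *Ttr*, *Folr1* and *Kl* and 444.7 CPM of striatal markers, against at most 1086 and 121.1 CPM in the other hippocampal libraries. Calls between genotypes and the counts of region calls are also given without the libraries numbered 1.

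Levels of different members were compared per length, as CPM per kilobase of the union of a gene's exons. Members together took 1137 to 1343 CPM in amygdala libraries and 1128 to 1368 CPM in hippocampal ones. Most of this was gamma RNA, which made up 73.4 to 79.3% of the members' counts per amygdala library and 71.2 to 79.3% per hippocampal library. The 5 C-type genes alone made up 39.8 to 56.3% and 45.8 to 56.6%, respectively. The upper ends were libraries numbered 1, without which the gamma share reached at most 76.6% and 75.5% and the C-type share at most 48.7% and 53.2%.

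Among the C-type genes, *Pcdhgc3*, which binds the Wnt pathway scaffold AXIN1, had the highest level per length in the amygdala (33.4 ± 2.88 CPM per kb, SD, n = 16) and stood at 30.0 ± 2.42 in the hippocampus. *Pcdhgc5*, whose protein binds a GABA-A receptor subunit, stood at 21.3 ± 3.26 CPM per kb in the amygdala and led the hippocampal levels with 33.6 ± 4.68. Per kilobase of first exon, however, *Pcdhgc3* was the highest in the hippocampus as well (48.8 against 47.2 CPM per kb for *Pcdhgc5*). *Pcdhgc4*, which neurons need for survival in development, had 29.5 ± 9.44 and 21.3 ± 8.94 CPM per kb, the widest spread of these genes. This level came mostly from a transcript with few bases of its own: of 3634 (amygdala) and 2824 (hippocampus) normalised counts on average, 1110 and 498.2 remained when only transcripts with at least 1000 bases of their own were counted, as described with the transcripts of this gene. In the amygdala *Pcdhgc3* and *Pcdhgc4*, and in the hippocampus *Pcdhgc5* and *Pcdhgc3*, differed by less than the SD of the wider of each pair. *Pcdhac2*, the alpha isoform that serotonergic neurons rely on, followed with 10.5 ± 1.39 and 12.9 ± 1.51 CPM per kb. The remaining C-type gene, *Pcdhac1*, was low, at 0.741 ± 0.19 and 1.20 ± 0.25 CPM per kb.

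On average, all alternate isoforms lay below the 4 C-type genes with high whole-gene levels. The highest alternate isoform, the gamma-A gene *Pcdhga11*, came near *Pcdhac2* with 8.51 and 10.1 CPM per kb, and the gamma-B gene *Pcdhgb6* stood at 7.25 in the amygdala. Median levels were 1.23 (amygdala) and 1.24 (hippocampus) CPM per kb for alternate alpha genes, 1.29 and 1.43 for beta genes, 4.67 and 4.25 for gamma-A genes and 3.31 and 3.44 for gamma-B genes. Within the alpha cluster, the alternate isoform *Pcdha8* was the lowest gene, at 0.152 ± 0.105 and 0.110 ± 0.071 CPM per kb. *Pcdhb9* was the highest beta gene (3.81 ± 0.80 and 3.96 ± 0.87 CPM per kb) and *Pcdhb1*, the first gene of the cluster, the lowest (0.108 ± 0.066 and 0.0233 ± 0.027). At its lowest *Pcdhb1* had 0 counts, so its values in the hippocampus lay at the limit of detection. In the gamma cluster the lowest gene was *Pcdhga1*, also the first of its cluster, at 1.37 and 1.85 CPM per kb. A gene's counts varied between mice of a group about as much as those of other genes: the median coefficient of biological variation of the members was 0.171 (amygdala) and 0.176 (hippocampus), beside 0.169 and 0.170 over all genes.

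**Figure D1:**
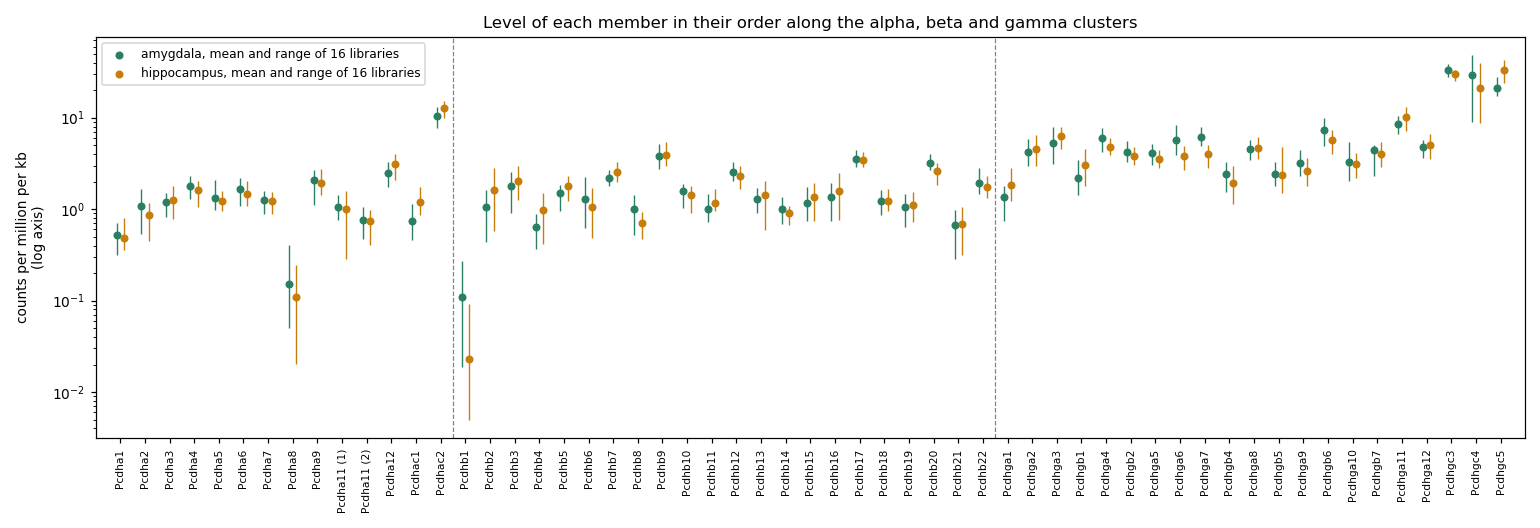
Level of each member in CPM per kilobase of exon (log axis), in gene order along the alpha, beta and gamma clusters, which dashed lines separate. Points are means and lines the range of 16 libraries in the amygdala (green) and the hippocampus (orange), with libraries at 0 drawn at the bottom of the line. *Pcdhac2* and the gamma C-type genes at the right end of their clusters stand at about 10 to 34 CPM per kb, and *Pcdhb1* and *Pcdha8* stand lowest.

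The comparison of *Kmt2a*-HET with WT addressed the effect of losing 1 copy of the writer on these genes. No member was called at an adjusted *p* under 0.1 in DESeq2 in either region, where 0.00329% (amygdala) and 0% (hippocampus) of all genes tested were called. At an unadjusted *p* under 0.05, 4 amygdala members passed (3.05% of all genes) and 6 hippocampal members (2.4% of all genes), and edgeR called 0 in both regions. In the amygdala 17 of 57 members were above WT and 40 below, where 43.9% of all genes were above, with a median log2 fold change of -0.13 beside -0.0017 over all genes. The hippocampus had 30 above and 27 below, where 49.5% of all genes were above, with a median of 0.012. DM against *Kdm5c*-KO has the same loss and shares no library with this comparison. There 21 of 57 amygdala members (36.8%) had the same sign as here, beside 44.9% of all genes. In the hippocampus it was 30 of 57 (52.6%) beside 50.6%.

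The member with the smallest *p* in the *Kmt2a*-HET hippocampus was the alternate alpha isoform *Pcdha4*. Its normalised counts were 246.3, 269.3, 249.9 and 192.6 in WT and 168.8, 216.2, 140.7 and 161.9 in *Kmt2a*-HET mice, so 1 *Kmt2a*-HET mouse lay above the lowest WT mouse (log2 fold change -0.48, SE 0.15, adjusted *p* = 1). For *Pcdha5*, the neighbouring alternate isoform, the hippocampal values were 171.0, 171.6, 177.4 and 187.5 in WT and 151.3, 127.9, 159.4 and 132.5 in *Kmt2a*-HET mice. All 4 *Kmt2a*-HET values lay below WT (log2 fold change -0.31, adjusted *p* = 1), a separation in the lower direction that 0.774% of all genes showed. The amygdala gave *Pcdha5* values of 216.6, 136.9, 210.2 and 253.4 in WT and 153.5, 166.0, 125.9 and 134.4 in *Kmt2a*-HET mice, and there the groups overlapped (-0.50, SE 0.19, adjusted *p* = 1).

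For the other genes with the smallest *p* of their cluster, no adjusted *p* fell below 1. In the amygdala these were *Pcdha3* (-0.18), *Pcdhb16* (-0.47), *Pcdhb14* (-0.28), *Pcdhga2* (-0.37) and *Pcdhgc5* (-0.33). In the hippocampus they were *Pcdhb11* (0.36), *Pcdhb6* (0.61), *Pcdhgb5* (0.49) and *Pcdhga3* (0.28). All 9 are isoforms with extracellular cadherin repeats of the kinds described above, and their values are log2 fold changes against WT.

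Next, loss of the eraser was examined in *Kdm5c*-KO mice. In the amygdala DESeq2 called 1 of 57 members, where 0.751% of all genes tested were called and 0.0313% were called lower. This was the alternate gamma-A isoform *Pcdhga9*, which fell. Its normalised counts were 479.7, 399.1, 495.8 and 575.6 in WT and 294.5, 329.4, 335.1 and 352.1 in *Kdm5c*-KO mice. Every *Kdm5c*-KO value lay below every WT value, which 0.835% of all genes showed, and the means were 327.8 ± 24.2 and 487.5 ± 72.4 (SD, n = 4; log2 fold change -0.57, SE 0.14, adjusted *p* = 0.00916). The same fold change had an adjusted *p* of 0.101 in the quasi-likelihood test of edgeR, just past the threshold. Leaving out any 1 of the 8 libraries kept the DESeq2 call (adjusted *p* 0.000845 to 0.0987), but without the libraries numbered 1 it was 0.169. With size factors from the spike-in RNA the log2 fold change was -0.43 (adjusted *p* = 1).

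The other members in the *Kdm5c*-KO amygdala did not pass the test. *Pcdhga10*, the gamma-A gene 2 places downstream of *Pcdhga9*, had 306.6, 292.3, 493.7 and 595.7 normalised counts in WT and 220.9, 279.4, 358.2 and 358.4 in *Kdm5c*-KO mice. Its groups overlapped (log2 fold change -0.47, SE 0.21, adjusted *p* = 0.734). *Pcdha5* (-0.51, adjusted *p* = 0.39), *Pcdha3* (-0.38, 0.709), *Pcdhb22* (-0.38, 0.826) and *Pcdhb12* (0.30, 0.793) had the smallest *p* of the alpha and beta clusters. Over all 57 members 20 were above WT and 37 below, where 46.6% of all genes were above, and the median log2 fold change was -0.11 beside -0.013 over all genes.

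In the hippocampus 4 of 56 members tested, 7.14%, were called in *Kdm5c*-KO mice, and all 4 fell. Over all genes 1.01% were called, and 0.18% were called lower. The study's own list of changed genes, chosen on these same libraries, holds *Pcdhga9*, *Pcdha12* and *Pcdhb3*, so their calls here are not independent evidence of their direction. *Pcdhb1* was not tested, because its mean count was below the threshold of independent filtering.

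*Pcdhga9* had 466.8, 417.9, 441.3 and 424.3 normalised counts in the WT hippocampus and 247.5, 361.2, 258.2 and 227.2 in the *Kdm5c*-KO hippocampus. As in the amygdala, the groups did not overlap, and *Kdm5c*-KO replicate 2 was the closest to WT. The means were 273.5 ± 59.8 and 437.6 ± 21.8 (log2 fold change -0.68, SE 0.18, adjusted *p* = 0.0305). *Pcdhga10* had 359.9, 444.8, 444.5 and 360.7 in WT and 237.8, 352.2, 237.4 and 275.5 in *Kdm5c*-KO mice. Again all *Kdm5c*-KO values were lower, with replicate 2 near the lowest WT mice (275.7 ± 54.0 against 402.5 ± 48.7, log2 fold change -0.54, SE 0.16, adjusted *p* = 0.0743).

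*Pcdha12*, the last alternate isoform before the alpha C-type genes, had 355.4, 498.4, 477.0 and 437.0 normalised counts in WT and 262.7, 363.0, 329.4 and 250.0 in *Kdm5c*-KO mice. The groups overlapped through WT replicate 1, which lay below *Kdm5c*-KO replicate 2 (301.3 ± 53.9 against 442.0 ± 63.0, log2 fold change -0.55, SE 0.15, adjusted *p* = 0.0356). For the beta gene *Pcdhb3* the values were 126.0, 225.3, 203.3 and 239.3 in WT and 105.3, 128.8, 113.8 and 137.3 in *Kdm5c*-KO mice. WT replicate 1 was again low, within the *Kdm5c*-KO range, and the other 3 WT mice lay well above it (121.3 ± 14.4 against 198.5 ± 50.5, log2 fold change -0.71, SE 0.20, adjusted *p* = 0.0462).

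These 4 calls rested on the tool and on single libraries. The share of all genes called under the other settings is not given here, so a count of 0 does not single out the members. In edgeR 0 of the members were called, with adjusted *p* of 0.17 (*Pcdha12*), 0.216 (*Pcdhb3*), 0.172 (*Pcdhga9*) and 0.226 (*Pcdhga10*), while 11 members had an unadjusted *p* under 0.05 in DESeq2, where 8.15% of all genes did. Without replicate 1 of the *Kdm5c*-KO hippocampus, the library with the choroid plexus and striatal markers, 0 were called, although the log2 fold changes were close (-0.63, -0.48, -0.49 and -0.65 for *Pcdhga9*, *Pcdhga10*, *Pcdha12* and *Pcdhb3*, with adjusted *p* of 0.155, 0.332, 0.214 and 0.236). Without any library numbered 1, *Pcdhb3* (-0.82, adjusted *p* = 0.0058) and *Pcdha12* (-0.58, 0.052) were called and *Pcdhga9* (-0.60, 0.249) and *Pcdhga10* (-0.53, 0.279) were not. With spike-in size factors 0 were called, at log2 fold changes of -0.53 (*Pcdhga9*), -0.30 (*Pcdhga10*), -0.43 (*Pcdha12*) and -0.63 (*Pcdhb3*), each with an adjusted *p* of 1. The number called was 7 without *Kdm5c*-KO replicate 2, 2 without WT replicate 4 and 1 without WT replicate 2, WT replicate 3, *Kdm5c*-KO replicate 3 or *Kdm5c*-KO replicate 4.

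Among all members of the *Kdm5c*-KO hippocampus, values below WT outnumbered those above in each cluster. Of the alpha genes 12 of 14 were below WT, of the beta genes tested 17 of 21, and of the gamma genes 13 of 21, whereas 49.8% of all genes were above WT. The median over the 56 members was -0.12 beside -0.00079 over all genes. Groups did not overlap for 5 members, beside 4.15% of all genes: *Pcdha5*, *Pcdhb13*, *Pcdhga9* and *Pcdhga10* were lower and *Pcdhga3* was higher. *Pcdhga3*, an alternate isoform near the upstream end of the gamma cluster, had 596.2, 612.5, 518.1 and 485.4 normalised counts in WT and 640.6, 840.5, 702.3 and 653.3 in *Kdm5c*-KO mice (log2 fold change 0.36, adjusted *p* = 0.349). *Pcdhac1* (-0.45, adjusted *p* = 0.514) and *Pcdhb4* (-0.64, 0.338) came next in their clusters by *p*. The tally of signs was weaker without replicate 1 of the *Kdm5c*-KO hippocampus, with 8 of 14 alpha, 14 of 22 beta and 12 of 21 gamma genes below WT and a median of -0.067 over all members. Without the libraries numbered 1 it was 9 of 14, 14 of 21 and 12 of 21, with a median of -0.11.

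The changes of the *Kdm5c*-KO amygdala and hippocampus were not shown to differ. In 1 fit of all 32 libraries, the test of the difference between regions called 0 members for *Kdm5c*-KO, beside 0.0125% of all genes, and 0 members had an unadjusted *p* under 0.05, beside 1.99%. This fit treated both libraries of a mouse as independent, and a version paired by mouse was not run. The difference (hippocampus minus amygdala) was -0.10 (SE 0.23) for *Pcdhga9*, -0.07 (SE 0.27) for *Pcdhga10*, -0.39 (SE 0.22) for *Pcdha12* and -0.53 (SE 0.32) for *Pcdhb3*, each with an adjusted *p* of 1. For *Kmt2a*-HET and DM, 0 members were called in the same test, where 0% and 0.0125% of all genes were, and 4 and 1 members had an unadjusted *p* under 0.05, beside 1.78% and 2.02%.

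**Figure D2:**
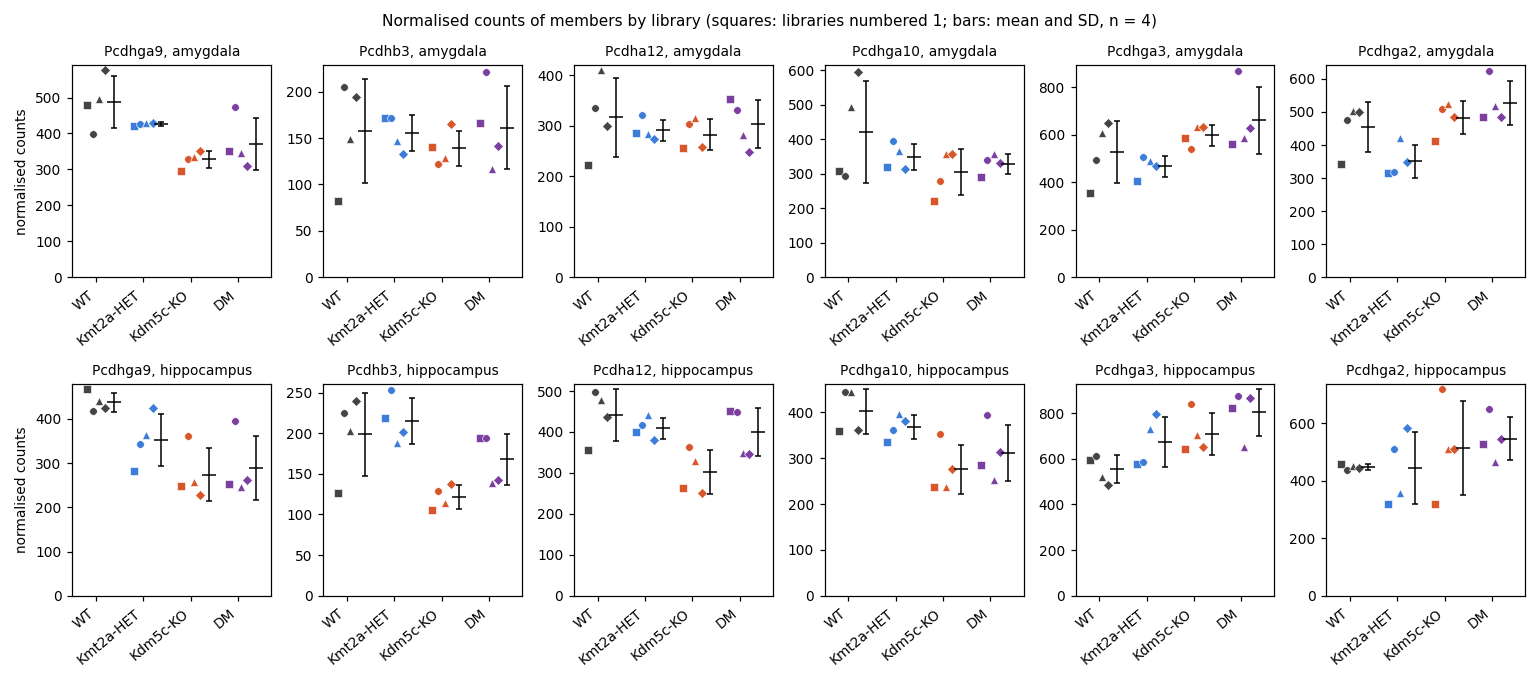
Normalised counts of the 6 members called between a pair of genotype groups (*Pcdhga12*, called in the pooled fit of KDM5C loss alone, is not drawn), in the amygdala (top row) and the hippocampus (bottom row). Each point is 1 library, squares are the libraries numbered 1, and bars give the mean and SD of 4 mice. *Pcdhga9* lies lower in all *Kdm5c*-KO mice than in all WT mice in both regions. In the hippocampus *Pcdhb3* and *Pcdha12* of *Kdm5c*-KO and WT mice overlap through the WT square.

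In DM mice, which lack KDM5C and carry 1 intact *Kmt2a* allele, 0 of 57 members were called against WT in the amygdala, where 0.966% of all genes were. In DESeq2 3 members had an unadjusted *p* under 0.05, beside 6.75% of all genes, and edgeR called 0. Without the libraries numbered 1, DESeq2 called 1 member. *Pcdhga9* had 351.3, 474.7, 346.2 and 310.1 normalised counts in the DM amygdala, and only replicate 2 reached the WT range (log2 fold change -0.39, SE 0.14, adjusted *p* = 0.249). *Pcdha5* had 131.9, 168.6, 121.4 and 126.0, which overlapped WT through WT replicate 2 (-0.57, SE 0.19, adjusted *p* = 0.169). The groups were apart for 2 members, beside 3.3% of all genes, namely *Pcdhga8* (-0.36, adjusted *p* = 0.365) and *Pcdhb12* (0.28, 0.744). *Pcdha9* (-0.36, 0.761) and *Pcdhb8* (0.40, 0.94) also had one of the smallest *p* of their cluster.

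In the DM hippocampus 2 of 56 members were called against WT, beside 0.875% of all genes. *Pcdhga3* rose, with 820.7, 875.3, 649.1 and 864.2 normalised counts in DM against the WT values given above. All DM values lay above all WT values, and replicate 3 was the closest (802.3 ± 104.8 against 553.0 ± 61.1, log2 fold change 0.54, SE 0.14, adjusted *p* = 0.0242). *Pcdhga9* fell, with 253.0, 396.0, 245.3 and 260.6 in DM mice. Replicate 2 stood far above the other 3 DM mice but still below WT (288.7 ± 71.8 against 437.6 ± 21.8, log2 fold change -0.60, SE 0.18, adjusted *p* = 0.0936). In edgeR the adjusted *p* were 0.14 for *Pcdhga3* and 0.277 for *Pcdhga9*, and 0 members were called. Each library left out in turn reduced the 2 calls to 1 or 0, with 0 left without WT replicate 3, WT replicate 4 or DM replicate 4. Without the libraries numbered 1 *Pcdhga3* was called (0.56, adjusted *p* = 0.0681) and *Pcdhga9* was not (-0.51, 0.33). The astrocyte markers also lay apart in this comparison, at a summed level of 948.3 to 1106 CPM in WT and 1202 to 1450 CPM in DM mice, with 1 of 4 called higher (*Gfap*, 0.68, adjusted *p* = 0.00631) and a median of 0.26, and their part in the members' changes was not tested. Spike-in size factors left *Pcdhga3* at 0.019 (adjusted *p* = 1) and put *Pcdhga9* at -1.16 (0.881).

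Other members of the DM hippocampus lay apart from WT without a call. Groups did not overlap for 9 members, beside 4.82% of all genes, of which 4 were higher (*Pcdhga2*, *Pcdhga3*, *Pcdhga11* and *Pcdhga12*) and 5 were lower (*Pcdha5*, *Pcdha11* (1), *Pcdhb4*, *Pcdhb20* and *Pcdhga9*). The 4 higher members were all gamma-A genes. *Pcdhga12*, the last of them before the gamma C-type genes, had 691.8, 636.5, 540.8 and 813.0 normalised counts in WT and 889.2, 1036, 841.8 and 870.5 in DM mice (log2 fold change 0.44, adjusted *p* = 0.299). *Pcdha9* (-0.45, adjusted *p* = 0.344), *Pcdha5* (-0.40, 0.372), *Pcdhb4* (-0.45, 0.682) and *Pcdhb20* (-0.23, 0.78) had the smallest *p* of the alpha and beta clusters.

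To ask whether the effect of one mutation depended on the other, DM was compared with each single mutant and with their added changes. Against *Kdm5c*-KO, 0 of 57 members were called in either region, beside 0.00329% and 0.0067% of all genes, and 1 and 3 members had an unadjusted *p* under 0.05, beside 2.29% and 4.53%. *Pcdhb3* had 194.6, 194.3, 139.3 and 142.8 normalised counts in the DM hippocampus, each above the highest *Kdm5c*-KO mouse (137.3), with a log2 fold change of 0.47 and an adjusted *p* of 1, and 1.18% of all genes lay apart in this direction. The interaction term, by which DM departs from both single changes added up, gave 0 calls in both regions, beside 0.00329% (amygdala) and 0% (hippocampus) of all genes, and 1 and 3 members at an unadjusted *p* under 0.05, beside 2.82% and 1.91%. For *Pcdha12* in the hippocampus this term was 0.51 (SE 0.21, adjusted *p* = 1), with DM values of 450.1, 449.7, 349.5 and 347.1 beside the *Kdm5c*-KO values of 250.0 to 363.0. EdgeR called 0 members in these comparisons.

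Against *Kmt2a*-HET, DM showed the effect of KDM5C loss on the *Kmt2a*+/- background. In the amygdala 1 of 57 members was called, beside 0.845% of all genes. *Pcdhga2*, the second gene of the gamma cluster, rose, with 314.0, 319.5, 421.1 and 348.4 normalised counts in *Kmt2a*-HET and 485.2, 625.0, 517.3 and 485.6 in DM mice. The groups did not overlap (528.3 ± 66.2 against 350.8 ± 49.3, log2 fold change 0.59, SE 0.15, adjusted *p* = 0.0143 in DESeq2 and 0.127 in edgeR). The call was lost without *Kmt2a*-HET replicate 1, *Kmt2a*-HET replicate 2 or DM replicate 2, but it was made without all libraries numbered 1 (0.58, adjusted *p* = 0.00506). With spike-in size factors the log2 fold change was 0.24 (adjusted *p* = 1). Markers of other tissue moved in the same comparison: 2 of 3 choroid plexus markers were called higher, with summed levels of 1694, 15.2, 293.4 and 7.7 CPM in DM and 12.8 to 21.6 CPM in *Kmt2a*-HET mice, and striatal markers ranged from 854.9 to 1569 CPM beside 502.1 to 1184, with 0 of 4 called. The call without the libraries numbered 1 left out the DM library with 1694 CPM, and the part of these tissues was not tested further. WT mice had 343.2, 474.8, 503.4 and 499.1, and 3 of these 4 values lay in or near the DM range and above all *Kmt2a*-HET mice. Its neighbour *Pcdhga3* had 404.2, 505.8, 488.5 and 467.9 in *Kmt2a*-HET and 559.9, 866.5, 584.9 and 629.9 in DM mice, which did not overlap (0.50, adjusted *p* = 0.25), beside 6.24% of all genes without overlap. In the hippocampus 0 of 56 members were called, beside 0.603% of all genes, 3 had an unadjusted *p* under 0.05, beside 5.03%, and edgeR called 0.

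The 2 comparisons that isolate loss of KDM5C, *Kdm5c*-KO against WT and DM against *Kmt2a*-HET, share no library. In the hippocampus 41 of 56 members (73.2%) had the same sign in both, 31 of them lower and 10 higher, beside 57.1% of all genes. In the amygdala it was 32 of 57 (56.1%) beside 52.6%. Members share libraries and, in the alpha and gamma clusters, exons, so these counts are descriptions.

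**Figure D3:**
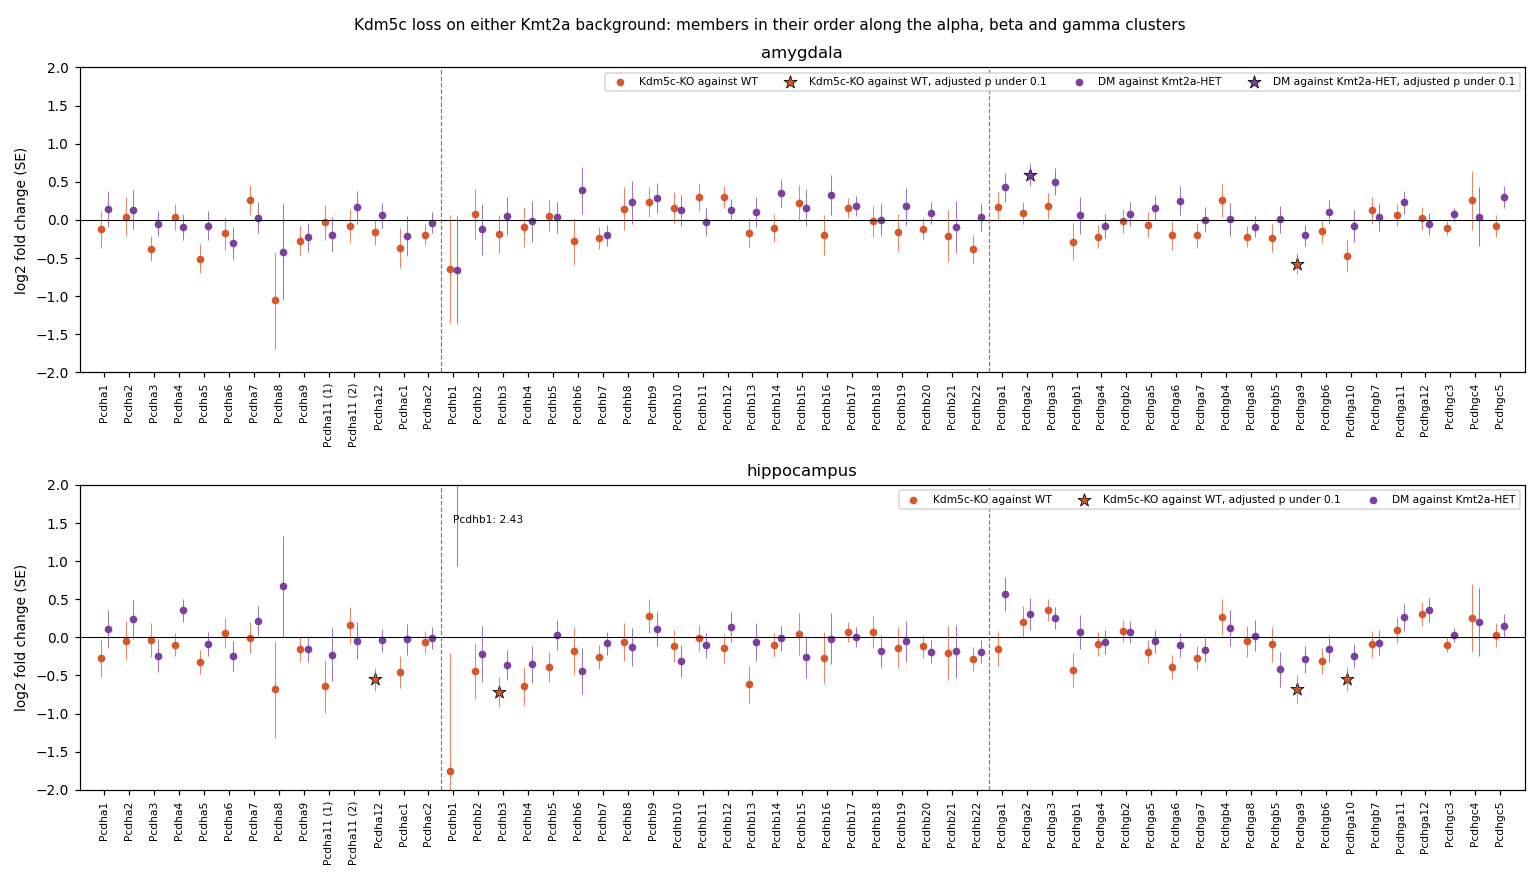
Log2 fold change of each member (bars: SE) in *Kdm5c*-KO against WT (orange) and DM against *Kmt2a*-HET (purple), in gene order along the 3 clusters, for the amygdala (top) and the hippocampus (bottom). Stars are members called at an adjusted *p* under 0.1, and the value of *Pcdhb1* in DM against *Kmt2a*-HET in the hippocampus (2.43) lies off the axis. In the hippocampus most alpha and beta points of both comparisons lie below 0, and *Pcdhga2*, *Pcdhga3* and *Pcdhga12* lie above it.

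Pooling the 2 backgrounds in an additive fit compared 8 mice without KDM5C with 8 mice that have it. In the amygdala 1 of 57 members was called, *Pcdhga9* (349.2 ± 54.6 against 456.9 ± 57.7 normalised counts, SD, n = 8, log2 fold change -0.39, SE 0.10, adjusted *p* = 0.0224 in DESeq2 and 0.0892 in edgeR). Over all genes 1.68% were called. Without the libraries numbered 1, *Pcdhga9* had an adjusted *p* of 0.13 and *Pcdhb9* was called in its place. The number called was 3 without WT replicate 4 and 2 without *Kdm5c*-KO replicate 1.

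In the hippocampus the pooled fit called 5 of 56 members, beside 2.66% of all genes, of which 2.11% were higher and 0.55% lower. *Pcdhb3* (144.5 ± 33.4 against 207.0 ± 39.0, log2 fold change -0.53, SE 0.14, adjusted *p* = 0.0128), *Pcdhga9* (281.1 ± 61.7 against 395.4 ± 61.0, -0.48, SE 0.13, 0.0178) and *Pcdhga10* (293.6 ± 56.5 against 385.5 ± 40.6, -0.39, SE 0.11, 0.0348) fell. *Pcdhga3* (755.7 ± 103.8 against 612.9 ± 103.7, 0.31, SE 0.097, 0.069) and *Pcdhga12* (868.4 ± 141.0 against 690.2 ± 90.7, 0.33, SE 0.11, 0.0954) rose. The 8 and 8 values overlapped for all 5. In edgeR *Pcdhb3* (adjusted *p* = 0.0758) and *Pcdhga9* (0.0897) were called, and *Pcdhga10* (0.111), *Pcdhga3* (0.145) and *Pcdhga12* (0.179) were not. Without the libraries numbered 1, DESeq2 called *Pcdhb3*, *Pcdhga9* and *Pcdhga12*, and single libraries left out gave 2 to 5 calls. Leaving out 1 library at a time lost *Pcdhga12* in 13 of 16 fits, *Pcdhga3* in 9, *Pcdhga10* in 2 and *Pcdhb3* and *Pcdhga9* in 0. With spike-in size factors none of these 5 was called, nor *Pcdhga9* in the amygdala, and *Pcdhga3* and *Pcdhga12* were at 0.19 and 0.14 (adjusted *p* = 0.9999 for both).

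Most members moved little in this pooled comparison. In the hippocampus 15 of 56 had a positive log2 fold change, where 47.2% of all genes did, and 41 a negative one, among them 19 of 21 beta genes. The median was -0.094 beside -0.009 over all genes. Without *Kdm5c*-KO replicate 1, or without the libraries numbered 1, 18 of 21 beta genes were negative. Choroid plexus markers moved with the same contrast: 2 of 3 were called higher, the median log2 fold change of the 3 was 2.87, and their summed level ranged from 34.1 to 1054 CPM in WT, 35.7 to 102.6 in *Kmt2a*-HET, 49.0 to 4338 in *Kdm5c*-KO and 42.9 to 1046 in DM mice. The neuronal markers ranged from 4680 to 5252, 4591 to 5634, 4013 to 5489 and 4615 to 4918 CPM in the same order, and 0 of 6 were called. Astrocyte markers moved as well: 1 of 4, *Gfap*, was called higher (log2 fold change 0.42, SE 0.11, adjusted *p* = 0.0138), the median of the 4 was 0.14, and their summed level ranged from 948.3 to 1106 CPM in WT, 994.6 to 1194 in *Kmt2a*-HET, 1043 to 1304 in *Kdm5c*-KO and 1202 to 1450 in DM mice. Of the other lists, 1 of 4 oligodendrocyte markers was called lower and 1 of 4 hippocampal markers higher. No marker of these lists was at 0 in every library. The part of choroid plexus RNA in the members' changes was not tested beyond the fits without the libraries named above, and that of the other lists was not tested.

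The matching comparison for *Kmt2a* dose, 8 heterozygous against 8 intact mice, called 0 members in both regions, beside 0% (amygdala) and 0.103% (hippocampus) of all genes. At an unadjusted *p* under 0.05, 2 and 9 members passed, beside 3.08% and 8.37% of all genes, and edgeR called 0. In the hippocampus 18 of 21 beta genes had a positive log2 fold change, where 51.0% of all genes did, with a beta median of 0.14. The amygdala had 9 of 22, where 46.7% of all genes did, with a beta median of -0.034.

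*Pcdhgc4* needed a closer look, because its whole-gene values varied widely between mice of a genotype. In the WT amygdala they were 6421, 3471, 3325 and 1166 normalised counts and in the WT hippocampus 3907, 1124, 3450 and 2878. The libraries numbered 1 held the highest *Pcdhgc4* value in all 8 groups, a pattern that 1.01% of all genes had. *Pcdhgc3* and *Pcdhgc5* did not show this pattern.

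The transcript table split the gene. The protein-coding transcript *Pcdhgc4*-201 (5024 bases) contains the whole variable exon, with 2905 bases that belong to no other gamma gene. The shorter transcript *Pcdhgc4*-203 (2272 bases) has only 153 bases of its own, and 93.3% of its sequence is shared with other gamma genes, so that reads from the constant exons of any gamma gene can be assigned to it. It received 0 to 90.3% (median 67.1%) of the *Pcdhgc4* counts of amygdala libraries and 46.2 to 90.7% (median 81.8%) of those of hippocampal libraries. In the WT amygdala its estimated normalised counts were 5797, 1830, 2064 and 0. The wide spread of the gene thus lay largely in a transcript that its own bases define poorly.

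Counted from transcripts with at least 1000 bases of their own, a choice made after these values were seen, *Pcdhgc4* became far steadier in the hippocampus. Its estimated normalised counts in the hippocampus were 535.4, 604.8, 528.9 and 692.5 in WT mice and 487.9, 596.4, 546.1 and 390.1 in *Kmt2a*-HET mice. *Kdm5c*-KO mice had 456.0, 421.6, 471.8 and 445.0, and DM mice had 363.8, 409.0, 438.9 and 325.3. All *Kdm5c*-KO and all DM values lay below all WT values. The order of the means was WT (590.4 ± 76.2), *Kmt2a*-HET (505.1 ± 88.6), *Kdm5c*-KO (448.6 ± 21.1) and DM (384.2 ± 49.97), with *Kmt2a*-HET overlapping each of the others.

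On this count *Pcdhgc4* fell in DM against WT in the hippocampus (log2 fold change -0.62, SE 0.14, adjusted *p* = 0.00247 in DESeq2, 0.0597 in edgeR and 0.0364 without the libraries numbered 1). It also fell in the pooled comparison for KDM5C loss in the hippocampus (-0.40, SE 0.094, 0.0033, 0.0394 and 0.038 in the same order). In *Kdm5c*-KO against WT it was -0.40 (SE 0.14, adjusted *p* = 0.214) and in *Kmt2a*-HET against WT -0.23 (adjusted *p* = 1). From whole-gene counts the same comparisons gave -0.17 for DM (adjusted *p* = 0.965), 0.23 for pooled KDM5C loss (0.943) and 0.26 for *Kdm5c*-KO (0.981), so the direction turned with the way of counting in the last 2. The amygdala values overlapped, at 623.1, 1641, 1261 and 1166 in WT mice, at 884.6, 1098, 1425 and 1094 in single *Kdm5c* mutants and at 1041, 1020, 963.9 and 1085 in double mutants. There the gene was not called, and whether the regions differ in this change was not tested.

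**Figure D4:**
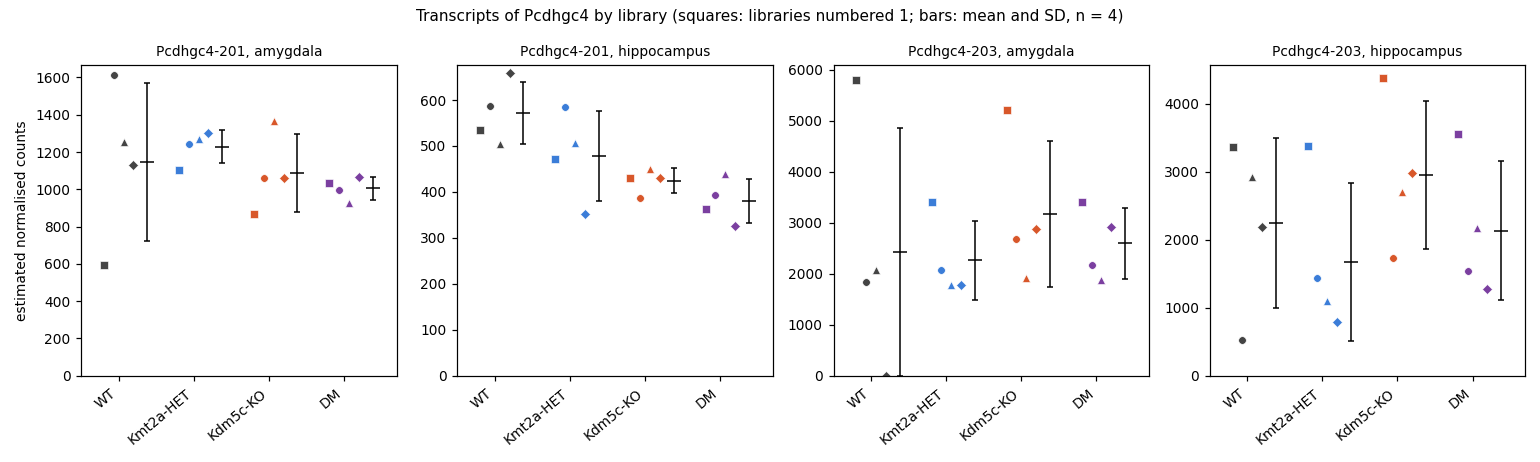
Estimated normalised counts of *Pcdhgc4*-201, which has the whole variable exon, and *Pcdhgc4*-203, of which 93.3% is shared with other gamma genes, in each library of the amygdala and the hippocampus. Squares are the libraries numbered 1 and bars give the mean and SD of 4 mice. In the hippocampus *Pcdhgc4*-201 lies lower in all *Kdm5c*-KO and DM mice than in all WT mice, and *Pcdhgc4*-203 is highest in the square of every group.

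The larger differences among these genes were between regions. In WT mice 7 of 57 members (12.3%) differed between hippocampus and amygdala in DESeq2, beside 16.9% of all genes. Values in this comparison are normalised counts on 1 scale for both regions, in the order of the mice. *Pcdhgc5* had amygdala values of 4108, 3168, 4018 and 4143 and hippocampal values of 6298, 5968, 5061 and 5969, which did not overlap (log2 fold change 0.60, SE 0.13, adjusted *p* = 8.42e-05). *Pcdhac1* had amygdala values of 80.6, 116.1, 113.2 and 91.8 and hippocampal values of 145.0, 204.3, 166.6 and 219.9. Each hippocampal value was above each amygdala value (0.88, SE 0.21, adjusted *p* = 0.000484).

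Among the alternate isoforms of WT mice, *Pcdhb4* had amygdala values of 51.2, 63.3, 49.3 and 60.3 and hippocampal values of 101.7, 134.5, 101.0 and 87.3 (0.92, SE 0.23, adjusted *p* = 0.0008). *Pcdhga1* had amygdala values of 126.2, 166.2, 176.1 and 188.2 and hippocampal values of 251.4, 230.2, 288.7 and 235.6 (0.62, SE 0.17, 0.00456). *Pcdhga7* went the other way, with amygdala values of 608.1, 695.0, 927.4 and 932.0 above hippocampal values of 514.5, 563.1, 573.0 and 498.3 (-0.55, adjusted *p* = 0.0102). In each of the 3 the regions did not overlap. *Pcdha12* (0.58, 0.038) and *Pcdhb5* (0.53, 0.0949) were also called higher in the hippocampus, of which *Pcdha12* overlapped. Without replicate 1 of both regions 8 members were called, 6 of these 7 among them, and *Pcdhb5* (0.43, 0.255) was lost. Leaving out 1 mouse at a time lost *Pcdhb5* in 4 of 4 cases, *Pcdha12* and *Pcdhga7* in 2 of 4 and *Pcdhga1* in 1 of 4, with 4 members called without replicate 3. With spike-in size factors 0 were called, and *Pcdhga7* turned to 0.23 (adjusted *p* = 0.832). Groups without overlap were found for 16.5% of all genes.

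Over all 16 mice, 28 of 57 members (49.1%) differed between the regions, beside 45.2% of all genes, so that the members as a whole stood near the background. Without the libraries numbered 1, 30 were called, 27 of these 28 among them, and *Pcdhga9* (-0.15, adjusted *p* = 0.19) was lost. In the hippocampus 19 were higher and 9 lower, where 21.8 and 23.4% of all genes were. The alpha cluster had 3 higher and 0 lower members, the beta cluster 9 and 3 and the gamma cluster 7 and 6. Summed neuronal markers were higher in every hippocampal library (4013 to 5634 CPM) than in every amygdala library (2725 to 3924 CPM). Those of astrocytes (948.3 to 1450 against 923.3 to 1195 CPM) and of choroid plexus (34.1 to 4338 against 7.1 to 1694 CPM) overlapped between the regions. The part of cell types in the members' region differences was not tested.

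The C-type genes were split between the regions. *Pcdhgc5* had 6110 ± 968 normalised counts in the hippocampus and 3583 ± 577 in the amygdala (SD, n = 16), higher in the hippocampus in 16 of 16 mice (log2 fold change 0.77, SE 0.079, adjusted *p* = 2.0e-21). *Pcdhac1* (154.3 ± 33.4 against 88.3 ± 22.6, 15 of 16 mice, 0.81, SE 0.11, 6.5e-12) and *Pcdhac2* (1804 ± 237 against 1363 ± 184, 16 of 16 mice, 0.41, SE 0.071, 6.15e-08) were higher in the hippocampus as well. *Pcdhgc3* was not called, with 3924 ± 335 against 4047 ± 359 and 7 of 16 mice higher in the hippocampus (-0.044, adjusted *p* = 0.462).

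*Pcdhgc4* was the C-type gene that was lower in the hippocampus. From whole-gene counts the difference was small (2824 ± 1150 against 3634 ± 1184, -0.38, SE 0.19, adjusted *p* = 0.0983), and its call was lost in 11 of 16 fits that left out 1 mouse. From transcripts with at least 1000 bases of their own it was 498.2 ± 99.5 against 1110 ± 231, higher in the amygdala in 16 of 16 mice (-1.17, SE 0.092, adjusted *p* = 4.1e-35 in DESeq2 and 1.47e-12 in edgeR). In WT mice alone that difference was -0.89 (SE 0.25, adjusted *p* = 0.0048), beside -0.24 (0.894) from whole-gene counts.

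Alternate isoforms differed in both directions. Higher in the hippocampus were *Pcdha12* (401.1 against 289.1 normalised counts, 16 of 16 mice, 0.46), *Pcdhb4* (87.8 against 52.2, 15 of 16 mice, 0.73), *Pcdhb2* (0.70, 15 of 16 mice) and *Pcdhb7* (0.32, 14 of 16 mice). In the gamma cluster *Pcdhga1* (0.55), *Pcdhgb1* (0.57), *Pcdhga3* (0.38) and *Pcdhga11* (0.36) were higher, with adjusted *p* of 6.38e-07, 7.46e-06, 2.30e-05 and 3.98e-05. *Pcdhga7* (494.2 ± 75.6 against 709.2 ± 115.9, -0.52, SE 0.078, adjusted *p* = 1.95e-10) and its neighbour *Pcdhga6* (431.3 against 596.6, -0.47, 1.14e-06) were lower in the hippocampus in 16 of 16 mice. *Pcdhb1* had the largest fold among whole-gene counts (-2.15, SE 0.47, 2.30e-05), but at 1.44 and 6.19 normalised counts on average it stood near the limit of detection. The remaining lower members were *Pcdhb8* (-0.38), *Pcdhb20* (-0.20), *Pcdhga4* (-0.21), *Pcdhgb6* (-0.23) and *Pcdhga9* (-0.17, adjusted *p* = 0.0733). Size factors from the spike-in RNA shift all genes of this comparison by about the same amount. With them, *Pcdhb8*, *Pcdhb20*, *Pcdhga4*, *Pcdhga6*, *Pcdhga7*, *Pcdhga9*, *Pcdhgb6* and *Pcdhgc4* from whole-gene counts turned to higher in the hippocampus, so these directions hold relative to the median gene.

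**Figure D5:**
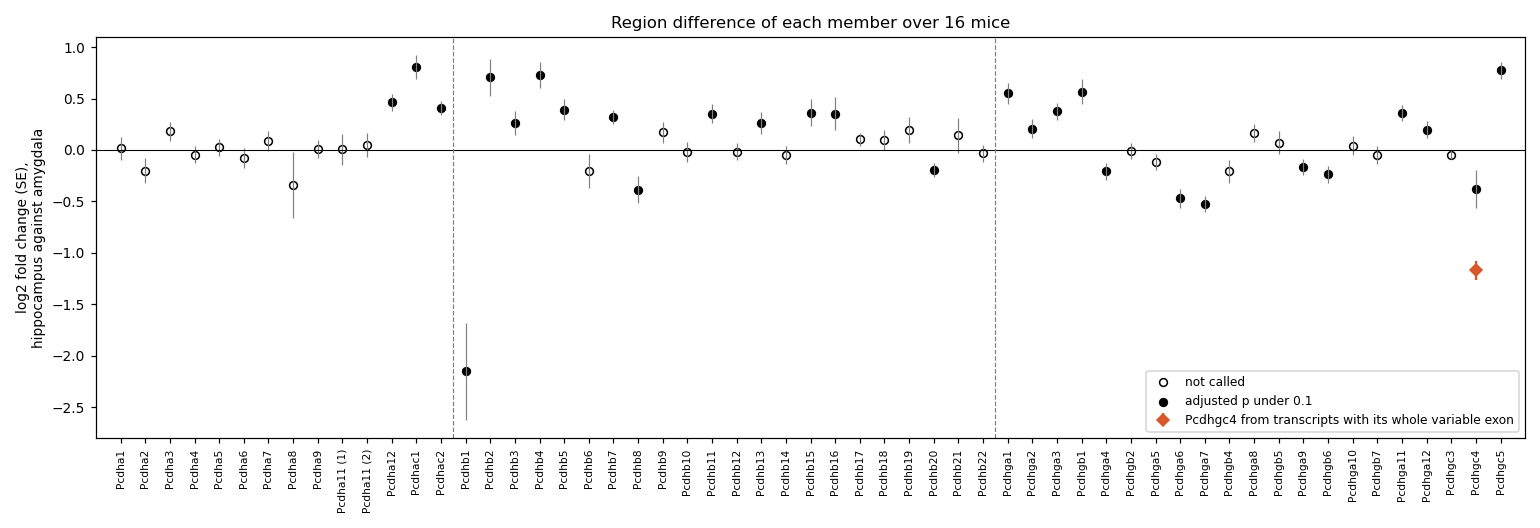
Log2 fold change of hippocampus against amygdala over 16 mice for each member (bars: SE), in gene order along the 3 clusters. Filled points are called at an adjusted *p* under 0.1, open points are not, and the orange diamond is *Pcdhgc4* counted from transcripts with its whole variable exon (-1.17). *Pcdhac1*, *Pcdhb4* and *Pcdhgc5* stand highest, and *Pcdhb1* and *Pcdhgc4* lowest.

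Of the genes that act on or with the clustered protocadherins, 1 was called between genotypes. Of 27 regulators of their promoters (insulator, cohesin, histone and DNA methylation factors), 12 non-clustered protocadherins and 20 partners of the proteins, only *Dnmt1*, the maintenance DNA methyltransferase, was called in any genotype comparison. It fell in the pooled comparison for KDM5C loss in the hippocampus (log2 fold change -0.18, SE 0.058, adjusted *p* = 0.0832), where 2.66% of all genes were called. In that comparison the insulator *Ctcf* stood at 0.041 (adjusted *p* = 0.919), the cohesin subunit *Rad21* at -0.025, its partner *Wiz* at -0.046, the histone methyltransferase *Setdb1* at -0.10 (0.370) and *Smchd1*, which represses the clusters, at -0.087 (0.884).

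Between regions these genes differed more often, as genes did in general. Over 16 mice 13 regulators were higher and 3 lower in the hippocampus, among them *Ctcf* (0.22, adjusted *p* = 7.64e-11), the cohesin release factor *Wapl* (0.36) and *Smchd1* (0.12, 0.0992) on the higher side and *Dnmt1* (-0.31, 3.05e-15) on the lower. Of the 12 non-clustered protocadherins 5 were higher (*Pcdh20* by 2.55 and *Pcdh1* by 1.10 on the log2 scale) and 6 lower (*Pcdh11x* at -1.79 and *Pcdh18* at -1.68). Of the 20 partners 14 were higher, led by the kinase *Ptk2b* (1.60) and the actin regulator *Wasf1* (1.19), and 1 was lower, the catenin *Ctnnb1* (-0.16). The background for these counts is the 45.2% of all genes given above.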

How the data were processed

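Values are expected counts per gene and transcript, deposited by the authors, who mapped reads to mm10 with STAR 2.5.3a and describe counting unique reads without duplicates with featureCounts (Subread 1.5.0). The estimator behind the expected counts is not given in the sources used here. Alpha and gamma values were mostly not whole (99.6 and 99.1%) and beta values mostly were (15.3% not whole), and 38.0 to 54.9% (alpha) and 27.8 to 66.8% (gamma) of a gene's exonic bases are shared, so an isoform's count depends on how reads of the constant exons were divided.

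Counts were rounded, and 92 ERCC sequences were left out. Symbols, coordinates and exon lengths came from GENCODE M21. Genes were tested across all genes with DESeq2 1.42.0 in R 4.3.3 (Wald test, 16 libraries of a region in a fit, default size factors and filters, unshrunken log2 fold changes), with Benjamini-Hochberg adjustment over all genes tested and calls at an adjusted *p* under 0.1. KDM5C loss and *Kmt2a* dose used an additive design of both genotypes. All alternatives, among them edgeR 4.0.16, are given in the closing part. Shares of all genes called are those of the main DESeq2 fits, and none is given for the alternatives. The scripts were tested on simulated data. Values are means ± SD of counts divided by size factors. Replicates were separate animals, which also differed in age; ages per mouse were not used here. Replicate pairs differed by more than counting error (chi-square per gene 3.75 to 124 over 48 pairs).

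Regions came from the same mice by the labels, and both libraries of a mouse deviated together from their groups (median correlation 0.194, over 0.1 in 14 of 16 mice). The main region fits did not pair these libraries, and the region fits with a block by mouse are given in the closing part. Members and lists were chosen with earlier results of these data known. Named were members called in any comparison, the 2 with the smallest *p* of each cluster in each comparison with WT and between regions, the C-type genes, the highest and lowest gene of each cluster, and members of the study's list. Members named for groups without overlap or in the closing part were chosen after their values were seen.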

Additional observations from a re-analysis of the deposited data

Results flagged for a closer look

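In 8 of 128 groups of 4 libraries, 1 library lay further from the other 3 than a Dixon test allows, where 1 in 20 groups, 6.4, would be marked by chance.

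For single genes this was the case 4 times. *Pcdhgc5* was lowest in WT amygdala replicate 2, at 3257 normalised counts beside 4133 to 4282 in the other 3. *Pcdhac2* was highest in DM amygdala replicate 2, at 1527 beside 1284 to 1321. *Pcdhga9* was highest in DM hippocampus replicate 2, at 396.0 beside 245.3 to 260.6, which widened the spread behind its call in DM mice. *Pcdhgc3* was lowest in DM hippocampus replicate 1, at 3317 beside 4091 to 4210.

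The other 4 were shares of the members' counts, all in libraries numbered 1. The alpha share was lowest in WT amygdala replicate 1 (11.3% beside 13.3 to 13.6%) and in *Kdm5c*-KO hippocampus replicate 1 (11.3% beside 13.4 to 13.8%). The gamma share was highest in *Kmt2a*-HET hippocampus replicate 1 (75.9% beside 72.6 to 73.1%) and in *Kdm5c*-KO hippocampus replicate 1 (79.3% beside 74.9 to 75.5%).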

How the results depend on the processing

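Size factors from the spike-in RNA gave 0 called members in *Kdm5c*-KO against WT in both regions, DM against *Kmt2a*-HET in the amygdala, DM against WT in the hippocampus, KDM5C loss in both regions and the WT region comparison, and 52 in the region comparison of all genotypes. They turned *Pcdhga7* to 0.23 in the WT region comparison and, over all genotypes, *Pcdhb8* to 0.26, *Pcdhb20* to 0.49, *Pcdhga4* to 0.46, *Pcdhga6* to 0.25, *Pcdhga7* to 0.13, *Pcdhga9* to 0.50, *Pcdhgb6* to 0.45 and *Pcdhgc4* to 0.21. EdgeR called 0 in *Kdm5c*-KO against WT in both regions, DM against *Kmt2a*-HET in the amygdala and DM against WT in the hippocampus, and 2 for KDM5C loss in the hippocampus. With adjusted *p* under 0.05, 1 and 3 were called in DM against WT and KDM5C loss in the hippocampus. Fits of only the groups compared gave 2 (DM against *Kmt2a*-HET, amygdala) and 4 (DM against WT, hippocampus). Without the libraries numbered 1, the calls were 1 in DM against WT in the amygdala and, in the hippocampus, 2 (*Kdm5c*-KO against WT), 1 (DM against WT) and 3 (KDM5C loss). Counting members from transcripts with 1000 or more bases of their own gave 3 calls in DM against WT in the hippocampus, with edgeR 0 for *Kdm5c*-KO against WT in both regions and DM against *Kmt2a*-HET in the amygdala, 1 for DM against WT and 3 for KDM5C loss in the hippocampus, and without the libraries numbered 1 it gave 1 for DM against WT in the amygdala and 2 for *Kdm5c*-KO against WT in the hippocampus. The fits without the libraries numbered 1, from transcripts with their own bases and with the replicate block in edgeR were chosen after the data were seen. Per length of the first exon, the median level was 2.94 and 2.75 CPM per kb, beside 1.94 per exon union, and *Pcdhgc3* replaced *Pcdhgc5* as the highest gamma gene of the hippocampus. The cause of these shifts was not tested.

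A replicate block, with numbers that genotypes share without a shared animal, gave 2 calls in DM against *Kmt2a*-HET and 3 for KDM5C loss in the amygdala. In edgeR the replicate block gave 0 in *Kdm5c*-KO against WT in both regions, KDM5C loss in the amygdala and DM against WT in the hippocampus, and 3 for KDM5C loss in the hippocampus. Deviations of same-numbered libraries correlated at a median of 0.316 (amygdala) and 0.254 (hippocampus) for number 1 and -0.073 to 0.096 for the others. The replicate block by mouse moved no count of the region comparisons by over 1.5 times.

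Leaving out 1 library at a time gave, in the amygdala and the hippocampus, 0 to 1 and 0 calls for *Kmt2a*-HET against WT, 1 to 2 and 0 to 7 for *Kdm5c*-KO against WT, 0 to 2 and 0 to 1 for DM against WT, 0 and 0 to 1 for DM against *Kdm5c*-KO, 0 to 1 and 0 for DM against *Kmt2a*-HET, 0 and 0 to 1 for the interaction, 1 to 3 and 2 to 5 for KDM5C loss and 0 and 0 for *Kmt2a* dose. In the amygdala WT replicate 2 (1 call for *Kmt2a*-HET, 2 for *Kdm5c*-KO, 2 for DM) and DM replicate 2 (2 for DM) moved a count, and in the hippocampus *Kdm5c*-KO replicate 2 did (1 call for DM against *Kdm5c*-KO and for the interaction). KDM5C loss in the hippocampus had 3 calls without WT 2, WT 3, *Kmt2a*-HET 2, DM 1, DM 2 or DM 4 and 2 without *Kdm5c*-KO 3. The region comparison gave 4 to 8 in WT mice, with 4 without replicate 3, and 23 to 29 over all genotypes.

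Of 14 named genotype calls, 14 kept direction and call with TMM factors, a low-count filter or the replicate block, and 3 with edgeR, whereas with spike-in size factors all 14 kept their direction and lost the call. Of 35 region calls 35 did with TMM factors and 33 of 34 with edgeR, and with spike-in size factors 20 did, 6 lost the call and 9 turned direction. Spike-in size factors shift all genes of a region comparison by about the same amount, so their tally is no measure of how stable single members are.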

Other observations

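The libraries numbered 1 differed from the other 3 of their group in single members as well as in shares. *Pcdhb14*, *Pcdhb16* and *Pcdhb21* had their lowest value in the library numbered 1 in all 8 groups, 3 of 55 members, where 3.21% of 12919 genes did. In 6 or more groups 17 of 55 members were lowest in that library, beside 12.6% of all genes. The C-type share of the members' counts was 56.3% in WT amygdala replicate 1 beside 39.8 to 46.6% in the other 3, and 56.6% in *Kdm5c*-KO hippocampus replicate 1 beside 48.7 to 53.2%. The transcript *Pcdhgc4*-203, with few bases of its own, moved with it, at 5797 normalised counts in WT amygdala replicate 1 beside 0 to 2064 in the other 3. With *Pcdhgc4* left out of the members' counts, a check chosen after the data were seen, the C-type share was highest in the library numbered 1 in 3 of 8 groups instead of 8, at 43.1% beside 37.4 to 39.3% in WT amygdala replicate 1 and at 46.1% beside 45.0 to 46.5% in *Kdm5c*-KO hippocampus replicate 1. The gamma share without *Pcdhgc4* was highest there in 7 of 8 groups. What the number 1 stands for is not given in the sources used here.

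The level per kilobase was compared with gene order along each cluster. Over the 21 gamma genes the rank correlation of level per kilobase with gene order was 0.552 (amygdala) and 0.510 (hippocampus), and without the 3 C-type genes it was 0.296 and 0.224. Over the 14 alpha genes it was 0.235 and 0.314, without the 2 C-type genes 0.210 and 0.224, and over the 22 beta genes 0.194 and 0.075. The genes share libraries and exons, so these are descriptions without a test. For the pooled KDM5C loss in the hippocampus the rank correlation of the log2 fold change with gene order was -0.341 (alpha), 0.196 (beta) and -0.061 (gamma), and without the C-type genes it was -0.392 (alpha) and -0.280 (gamma). In the amygdala it was -0.235, 0.109 and -0.148, and -0.154 (alpha) and -0.352 (gamma) without the C-type genes.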
